A study of Rattus norvegicus with 5 samples.

Results

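HOX cluster genes were followed in 4 rat hepatocellular carcinoma lines and in 1 normal rat liver on single-colour CodeLink Rat Whole Genome arrays. The members are all probes whose platform gene symbol begins with Hoxa, Hoxb, Hoxc or Hoxd and a number. This gave 13 genes of the 12198 named on the array, each with 1 probe. They are 11 of the 39 coding HOX genes in the RefSeq table and 2 long non-coding RNAs of the clusters, Hoxa11-as and Hoxb5os. Cluster A gave 4 members, B 4, C 1 and D 4, so that most of cluster C was not analysed here. All 13 probes had a usable spot on all 5 arrays.

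The series counts C5F and C6 as low-metastatic, N1 and L2 as high-metastatic. All 4 derive from liver tumours of male F344 rats that had been given N-nitrosomorpholine and diethylnitrosamine, with 31 weeks as the stated age. The reference was untreated liver of a male SD rat aged 50 weeks, so that liver and lines also differ in strain, in age and in being grown in culture. Each array holds 1 sample, the 2 lines of a class are its only replicates, and the liver has none, so the number of arrays limits every value. Nothing says whether RNA of a line came from 1 culture or several.

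HOX genes encode transcription factors that bind DNA through a homeodomain, and their order along each cluster follows the order in which they are used along the body axis of the embryo. Polycomb complexes keep the clusters silent, trithorax proteins and retinoic acid favour their activity, and PBX and MEIS proteins bind DNA together with the HOX proteins. In adults, mesenchymal cells tend to keep a positional HOX pattern, whereas liver epithelium arises from anterior endoderm, where few HOX genes are active.

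The promoters of the members on which the results turn are shown first, because CpG-rich promoters are the usual targets of Polycomb silencing. RefSeq windows of GRCr8, from 250 bases before to 50 bases after the start, were found for 8 of the 13 members: Hoxa2, Hoxa11, Hoxa11-as, Hoxc4, Hoxd1, Hoxd8, Hoxd9 and Hoxd13. Hoxd8 was above background in N1 and L2 alone, its next gene in the cluster, Hoxd9, on no array, Hoxa2 in all 4 lines, and Hoxa11 in C5F alone. Capitals mark each CG pair, and each window is written 5′ to 3′ on the strand of its gene.
Hoxd8 (GRCr8, chr3:80014973-80015272, + strand): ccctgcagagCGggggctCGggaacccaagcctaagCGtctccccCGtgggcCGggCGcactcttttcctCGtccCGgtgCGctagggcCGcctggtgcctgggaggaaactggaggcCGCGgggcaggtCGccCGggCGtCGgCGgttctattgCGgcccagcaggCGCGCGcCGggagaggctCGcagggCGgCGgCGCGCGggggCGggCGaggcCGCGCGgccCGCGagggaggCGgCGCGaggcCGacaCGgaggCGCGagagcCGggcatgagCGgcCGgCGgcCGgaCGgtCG
Hoxd9 (GRCr8, chr3:80007756-80008055, + strand): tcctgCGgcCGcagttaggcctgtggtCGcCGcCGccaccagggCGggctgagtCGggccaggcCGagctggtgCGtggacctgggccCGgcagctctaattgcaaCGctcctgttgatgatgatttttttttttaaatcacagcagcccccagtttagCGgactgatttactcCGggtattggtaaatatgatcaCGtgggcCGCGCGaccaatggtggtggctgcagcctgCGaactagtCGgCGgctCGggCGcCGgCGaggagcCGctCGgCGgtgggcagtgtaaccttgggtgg
Hoxa2 (GRCr8, chr4:82595643-82595942, - strand): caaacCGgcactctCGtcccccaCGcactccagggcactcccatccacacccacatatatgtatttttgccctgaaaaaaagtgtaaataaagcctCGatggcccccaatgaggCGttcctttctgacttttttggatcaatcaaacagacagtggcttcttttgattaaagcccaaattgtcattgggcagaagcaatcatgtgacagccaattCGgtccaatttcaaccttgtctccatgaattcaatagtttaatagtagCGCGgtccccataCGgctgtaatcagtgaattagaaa
Hoxa11 (GRCr8, chr4:82676752-82677051, - strand): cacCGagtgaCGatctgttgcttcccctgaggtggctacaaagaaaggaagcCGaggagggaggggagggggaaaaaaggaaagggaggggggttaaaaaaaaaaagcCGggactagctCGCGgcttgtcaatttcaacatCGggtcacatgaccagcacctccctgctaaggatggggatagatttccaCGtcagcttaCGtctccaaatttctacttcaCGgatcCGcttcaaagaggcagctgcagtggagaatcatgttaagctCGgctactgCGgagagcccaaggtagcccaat

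The Hoxd8 window held 49 CG pairs, more than 99.1% of the 33469 windows in the table, whose median was 7. Hoxd9 held 27 and Hoxa2 held 9. The Hoxa11 window held 13 and shared 274 of its 300 bases with that of Hoxa11-as, which reads the other way from a start 227 bases off. Over the 8 windows the count ran from 6 (Hoxc4) to 49. Motifs were searched on both strands. The GC box GGGCGG was in 4 of the 8 windows (Hoxd1, Hoxd8, Hoxd9 and Hoxd13) and in 33.1% of all windows. CCAAT was in 4 (Hoxa2, Hoxa11, Hoxd1 and Hoxd9), with 4 matches in Hoxa2, and in 37.5% of all. The composite site of PBX with HOX, TGATNNAT, was in Hoxa2 alone of the 8 and in 9.10% of all windows. None of the 8 held TAATTA, the core that many homeodomains bind, which 5.36% of all windows held.

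By the software's call, a smaller share of the HOX members than of named genes gave a signal on every array, a description that was not tested and that turned in N1 under another rule given with the background of the arrays. The scanner software called a spot above background or near background. It called 3 of the 13 members above background in liver, against 47.4% of named genes with 1 probe on that array. C5F had 6 (57.1% of such genes), C6 had 3 (51.5%), N1 had 4 (50.7%) and L2 had 5 (52.0%). The liver count was made up of Hoxb5, Hoxb5os and Hoxd1. C5F added Hoxa2, Hoxa11 and Hoxa11-as to those 3, C6 had Hoxa2, Hoxb5 and Hoxb5os, N1 had Hoxa2, Hoxb5os, Hoxb13 and Hoxd8, and L2 had Hoxa2, Hoxb5, Hoxb5os, Hoxd1 and Hoxd8.

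By cluster, A had no member above background in liver, 3 in C5F and 1 in each other line. Cluster B had 2 on every array. The only member of cluster C, Hoxc4, was near background throughout, and cluster D had 0 in C6, 1 each in liver, C5F and N1, and 2 in L2. Of the 13, Hoxa5, Hoxb4, Hoxc4, Hoxd9 and Hoxd13 were near background on all 5 arrays, as were 44.7% of the 5434 named genes with 1 probe that were usable on all arrays. Of the 13, 3 were above background in liver (34.4% of the 5434 genes). Another 3, Hoxa11, Hoxa11-as and Hoxb13, were so in exactly 1 of the 4 lines (9.97%).

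**Figure D1:**
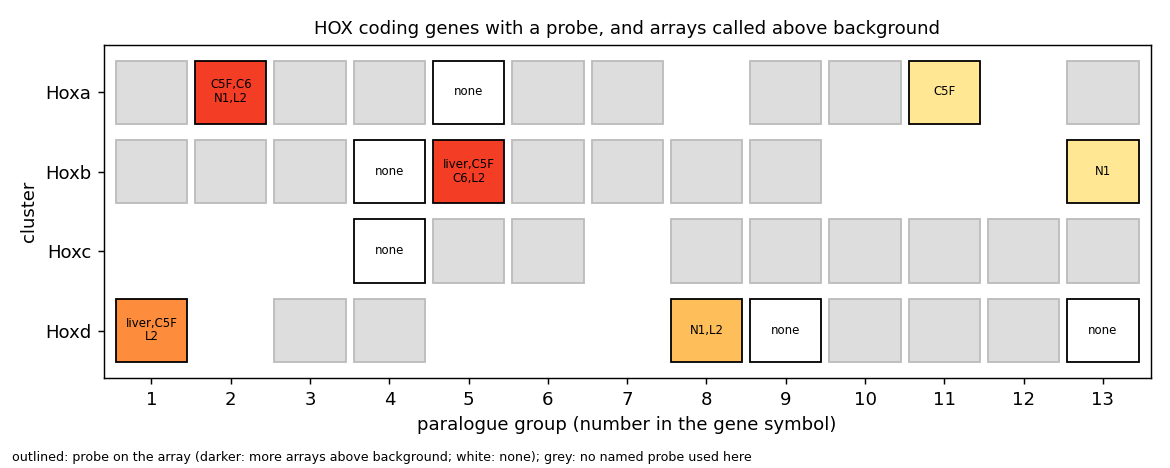
The grid places the 39 coding HOX genes by cluster (rows) and paralogue group (columns); outlined cells have a probe here and name the arrays called above background, and darker cells have more such arrays. Hoxa2 and Hoxb5 were called on 4 arrays each, and 5 outlined cells carry none.

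The arrays differed in background. C5F had the highest share of all 33849 discovery probes above background (39.2%, against 30.6% to 36.0% on the other 4). It also had the brightest negative control spots: the 95th percentile of their raw intensity was 8.77 in C5F and 4.26 to 4.61 elsewhere. In C5F the brightest negative control stood at 28.0 and 3 of 212 were called above background, against 0 on each other array. The lowest normalised signal called above background was 7.87 in C5F, 11.2 in L2, 11.8 in C6, 13.04 in N1 and 14.6 in liver. When 1 limit of 14.6 was used for all arrays, the counts of members became 3 in liver and C6 and 4 in C5F, N1 and L2, because Hoxa11-as and Hoxd1 dropped out in C5F and Hoxd1 in L2. When a member counted above the 95th percentile of the negative controls, they became 6 in C5F, 7 in liver, 7 in L2, 8 in C6 and 10 in N1. By that rule 76.9% of the members and 65.5% of all named genes counted in N1. On the other arrays the share of the members, 46.2% to 61.5%, stayed below that of named genes, 63.2% to 67.1%. C5F was then lowest and N1 highest, so the order of the arrays by HOX count depends on the rule.

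**Figure D2:**
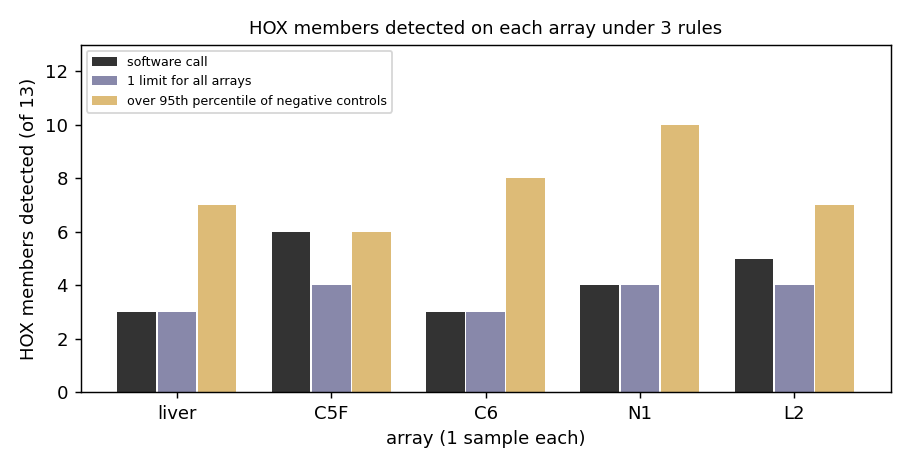
Bars give the number of the 13 HOX members detected on each array (1 sample each) by the software's call, by 1 limit for all arrays, and by the 95th percentile of the negative controls. C5F leads with 6 by the first rule and N1 with 10 by the last.

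The tissue labels were checked against markers. Of 10 hepatocyte markers, 8 were above background in liver, 6 in C5F, 1 in N1 and 0 in C6 and L2, so the defining genes of the hepatocyte were near background or unusable in most lines. Liver also carried markers of its other cells: 4 of 9 of stellate cells and fibroblasts, 5 of 7 of endothelium and 4 of 5 of Kupffer and blood cells. Their summed normalised signals were 382, 524 and 3416 in liver. In the lines the fibroblast sum ran from 13.7 to 279, the endothelial from 23.5 to 43.7 and the Kupffer and blood cell sum from 40.2 to 93.8. The sums run over usable spots alone. Col1a1 and Col1a2, which make up most of the 279 in C5F, had no usable spot in C6, where the sum was 13.7, and liver lacked Col1a2 and Pecam1, so these sums are not compared between arrays. Of 4 cholangiocyte markers, 1 was above background in liver, 2 in C5F, 1 each in C6 and L2, and 0 in N1. Krt19 stood at 2213 in C5F, 1376 in C6 and 563 in L2, without a usable spot in liver or N1. Sox9 and Spp1 were near background on all 5 arrays. Which cells gave the HOX signals of liver was not tested.

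The first question of the design is how the high-metastatic pair differs from the low-metastatic pair. Hoxd8, a transcription factor of the middle of cluster D, had normalised signals of 16.3 in N1 and 18.0 in L2. It stood at 1.91 in C5F, at −0.10 in C6 and at 4.50 in liver, all 3 near background. Both high-metastatic lines were thus above both low-metastatic lines and above liver. Among the 5434 genes, 27 (0.497%) were above background in N1 and L2 and in neither C5F nor C6, and Hoxd8 was the only HOX member of these. The reverse pattern, both low-metastatic lines and neither of the others, was seen in 2.01% of the genes and in 0 of the 13 members.

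Hoxd8 was on average brighter in N1 and L2 by at least 1.79-fold. This counts from the mean of the lowest signals called above background in C5F and C6. Such a bound, here and below, compares means on the log2 scale and need not hold for each line. The mean of N1 and L2 was 4.102 on the log2 scale, and both low-metastatic lines were at the floor of 1.34. The fitted difference of 2.76 ± 0.18 (SE, n = 2 lines per class) depends on that floor, and the low-metastatic lines add no spread to its error. Its limma p-value was 0.000263, which became 0.602 after Benjamini-Hochberg adjustment over 13741 probes. The bound lay between 1.64-fold and 1.86-fold with other scalings, and an offset of 50 brought the fitted difference to 0.40. Hoxd8 passed the filter on dim probes through N1 and L2 alone, so it had to differ, and without N1 or L2 it no longer passed.

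The raw signal of Hoxd8 was 14.7 in N1 and 19.0 in L2. These raw signals were 2.24 and 2.38 times the brightest negative control spot of their arrays. The normalised signals of 16.3 and 18.0 were 1.25 and 1.61 times the lowest normalised signal called above background there. In C5F, 64 of 212 negative control spots were at least as bright as Hoxd8. Both detected values are therefore dim, and each rests on 1 spot. The next gene of the cluster, Hoxd9, was called near background on all arrays, as was the posterior gene Hoxd13. The raw signal of Hoxd9 was still 1.18 times the brightest negative control in both N1 and L2. Hoxd13 stayed below the brightest negative control on every array.

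**Figure D3:**
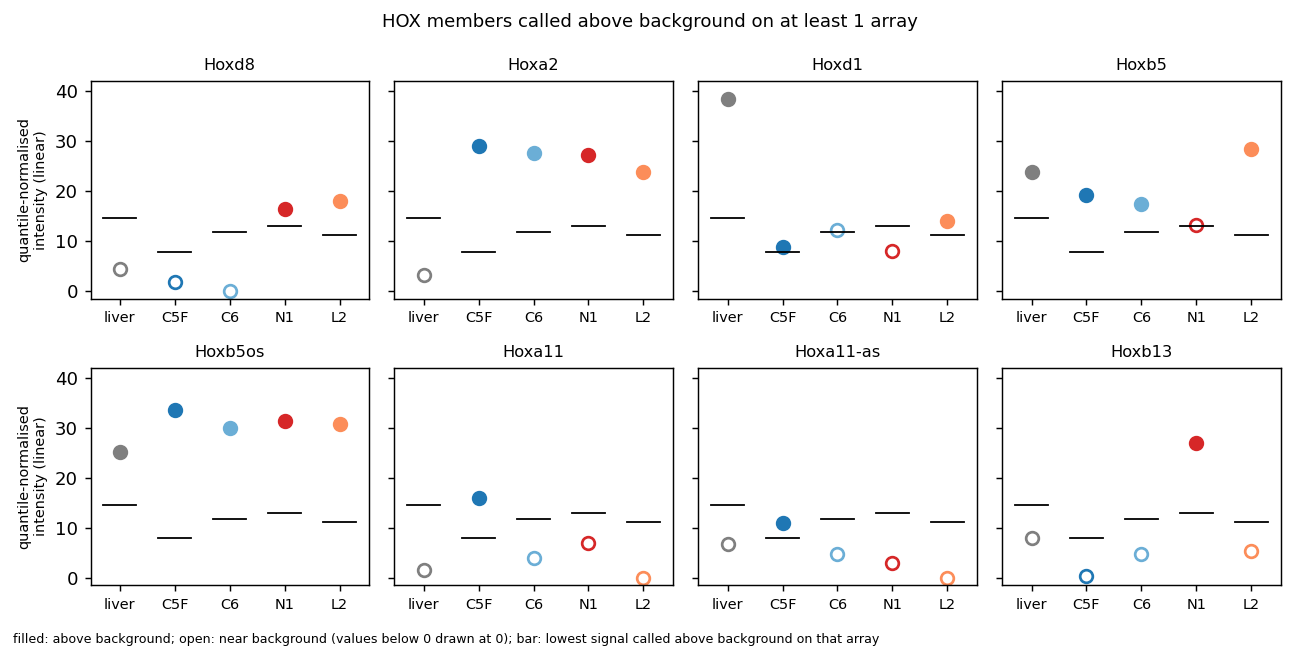
Each panel shows 1 HOX member on the 5 arrays as quantile-normalised intensity on a linear scale; filled points were called above background, open points near background, and bars give the lowest signal so called on that array. Hoxd8 is filled in N1 (16.3) and L2 (18.0) alone, and Hoxa2 in all 4 lines.

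No other member was above background in both lines of one class and in neither of the other. With signals below the floor set to it, Hoxb13 and Hoxd9 also had both high-metastatic signals above both low-metastatic ones, and Hoxa11-as had both below. Of these, Hoxb13 was near background outside N1, Hoxa11-as outside C5F and Hoxd9 on all arrays. By limma, 0 of the 13741 probes passed the adjusted threshold of 0.05 in either direction (0%), with 1005 probes (7.31%) at an unadjusted p under 0.05; Hoxd8 was 1 of these. Of the 13 members, 5 passed the filter and were tested: Hoxa2, Hoxb5, Hoxb5os, Hoxd1 and Hoxd8. Hoxa2 differed by −0.15 ± 0.19 (SE, n = 2 lines per class), Hoxb5 by 0.079 ± 0.46, Hoxb5os by −0.026 ± 0.18 and Hoxd1 by 0.014 ± 0.39, with limma adjusted p-values of 0.855, 0.979, 0.984 and 1. Each of these 4 differences was smaller than its error. Among the 5 tested members, both high-metastatic lines lay above both low-metastatic lines for Hoxd8, as for 17.5% of 9352 probes measured in all 4 lines, and both below for Hoxa2, as for 19.2%.

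Hoxb13, the most posterior gene of cluster B and known from prostate, was above background in N1 alone. Its normalised signal was 26.9 in N1, against 0.317 (C5F), 4.85 (C6), 5.39 (L2) and 7.98 (liver), which were near background. N1 was at least 2.66-fold brighter than the mean of the other 3 lines. The raw signal of 24.6 was 3.74 times the brightest negative control of that array. Of the 5434 genes, 1.32% were above background in N1 alone of the lines. The gene did not pass the filter and has no test.

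Hoxa11, which patterns limb, kidney and uterus, and its divergent antisense transcript Hoxa11-as were both above background in C5F alone. Hoxa11 had a normalised signal of 16.1 in C5F, against −1.31 (L2), 1.62 (liver), 3.89 (C6) and 7.04 (N1). Hoxa11-as had 11.0 in C5F, against −2.61 (L2), 3.01 (N1), 4.72 (C6) and 6.71 (liver). C5F stood above the other arrays for both RNAs, whose starts face away from each other in the promoter shown above. For Hoxa11 C5F was at least 1.34-fold brighter than the mean of the other 3 lines. For Hoxa11-as no fold can be given, since the mean limit of the other lines lies above its signal.

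In C5F, 2 of 212 negative control spots were at least as bright as Hoxa11 and 7 as bright as Hoxa11-as. Of the 5434 genes, 5.67% were above background in C5F alone of the lines, so such a call was common on that array. Whether the raised background of C5F gave these calls was not tested. The strand each probe reads was not checked, so the RNAs of a pair with opposite directions cannot be told apart by name alone.

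**Figure D4:**
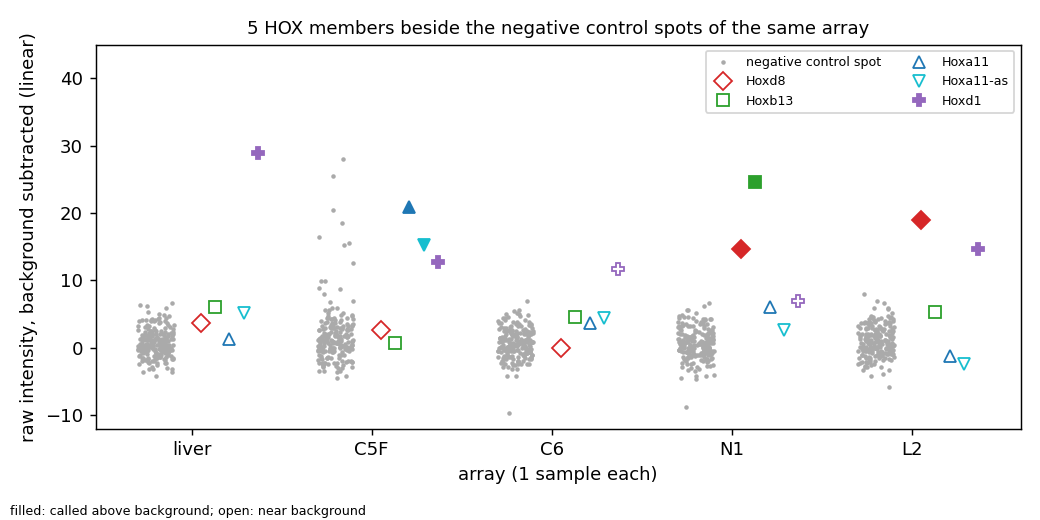
Raw background-subtracted intensity on a linear scale of the negative control spots (grey) and of 5 HOX members on each array; filled symbols were called above background. Hoxd8 in N1 (14.7) and L2 (19.0) lies above all negative controls of its array, whereas Hoxa11 in C5F (20.9) lies below the brightest control there (28.0).

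The second comparison set all 4 lines against the liver reference. Hoxa2, the most anterior member of cluster A here and a gene of hindbrain and pharyngeal arch patterning, rose in all 4 lines. In liver its normalised signal was 3.22, near background, and the lines ran from 23.8 (L2) through 27.3 (N1) and 27.6 (C6) to 29.1 (C5F). Every line stood above liver, and the 4 lines lay close together. The mean of the lines was at least 1.84-fold brighter than liver. The fitted log2 difference was 3.06 ± 0.21 (SE, n = 4 lines against 1 liver, limma adjusted p = 0.0110).

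Hoxa2 was the only tested HOX member past the threshold. Near background in liver, at 3.22 with a floor of 2.53, it passed the filter on dim probes through the lines alone. That it lay higher in the lines was thus set by the filter. The size of the fitted difference depends on that near-background value. Of 11949 probes tested, 9.01% were higher and 9.38% lower in the lines. Of the 5434 genes, 5.65% were above background in all 4 lines and not in liver. The raw signal of Hoxa2 exceeded the brightest negative control by 1.29 times in C5F and by 3.14 to 3.96 times in the other lines. The adjusted p-value became 0.0613 without C5F and 0.0659 without C6, where no probe of the array passed. An offset of 50 brought the difference to 0.53, with the call kept. The call assumes that the lone liver varies as the lines do within a class.

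Hoxd1, the most anterior gene of cluster D, pointed the other way. Its normalised signal was 38.3 in liver. Among the lines it was 8.91 in C5F and 13.99 in L2, while C6 (12.3) and N1 (7.95) were called near background. Liver stood above every line. The log2 difference of the lines from liver was −1.87 ± 0.44, with a limma adjusted p-value of 0.0715, which does not pass. The raw signal in liver, 29.0, was 4.33 times the brightest negative control. In whole tissue against cultured lines, fewer cells of a type and less RNA per cell cannot be told apart. Of the tested markers, 3 of 3 of stellate cells, 4 of 5 of endothelium and 2 of 4 of Kupffer and blood cells were lower in the lines by limma, beside 9.38% of all tested probes. Of the markers so called, all but Clec4f were near background in all 4 lines and passed the filter through liver alone. For these the direction was set by the filter. Among untested stellate cell markers, Col1a1 was above background in liver (188), C5F (137) and N1 (180), and Col1a2 in C5F and L2. Neither had a usable spot on the other arrays. Lrat, Lum, Acta2 and Twist2 were near background on all 5 arrays, as was Emcn of endothelium. Pecam1 was above background in all 4 lines, without a usable spot in liver. The part of the markers in the Hoxd1 value was not tested.

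Hoxb5, which acts in foregut, lung and gut neurons, was above background in liver and 3 lines. Its normalised signal was 23.8 in liver, 28.3 in L2, 19.2 in C5F and 17.4 in C6, and in N1 it was 13.2, near background. Liver lay within the range of the lines. The difference from liver was −0.34 ± 0.51 (limma adjusted p = 0.656).

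Hoxb5os, the transcript of the opposite strand whose RefSeq span contains Hoxb5, was the only member above background on all 5 arrays, as were 22.3% of the 5434 genes. Its normalised signal was 25.2 in liver, and 29.9 (C6), 30.8 (L2), 31.3 (N1) and 33.5 (C5F) in the lines. The 4 lines were all above liver, by 0.31 ± 0.20 on the log2 scale, which did not pass (limma adjusted p = 0.333). N1 had Hoxb5os above background and Hoxb5 near it. Hoxd8 differed from liver by 0.55 ± 0.20 (limma adjusted p = 0.146), a mean over lines with and without signal.

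A few spots lay at the edge of detection and were picked out after their values were seen. Hoxb5 in N1 at 13.2 and Hoxd1 in C6 at 12.3 were called near background although the lowest signals called above it on those arrays were 13.04 and 11.8. Hoxb4 in liver reached 14.2, just under the 14.6 there. Hoxd1 in C5F at 8.91 was called above background at 1.13 times the lowest such signal, and 7 of 212 negative controls were at least as bright.

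Genes that act with HOX proteins or on their clusters were taken from lists. Of 4 tested HOX cofactors 0 differed between the classes, with a median log2 difference of −0.25 against 0 over all tested probes. Pbx3 and Pbx2, which bind DNA as partners of HOX proteins, differed by −0.25 ± 0.27 and 0.15 ± 0.22 and were above background in all 4 lines. Meis1, a further partner, was above background in liver alone, at 19.3. It passed the filter through liver alone, so its direction was set by the filter. The mean of the 3 lines with a usable spot was at least 1.81-fold dimmer, and the difference from liver did not pass the threshold. Meis1 was picked after its values were seen. Of the 21 Polycomb genes on the array, 12 were tested between the classes and 0 differed (median 0.050).

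Against liver, 2 of 9 tested Polycomb genes were higher in the lines and 0 lower, beside 9.01% higher and 9.38% lower over all 11949 tested probes (median 1.37, against 0.15 over all). Ezh2, the methyltransferase that places the repressive Polycomb mark, was on average at least 2.51-fold brighter in the lines (limma adjusted p = 0.0401). It had no usable spot in N1. Kdm2b, which recruits a Polycomb complex to CpG-rich promoters, was on average at least 2.07-fold brighter (limma adjusted p = 0.0233). Both were near background in liver, as were Rnf2, Phc1 and Cbx7 of the tested Polycomb genes. These genes passed the filter through the lines alone, so their direction, and their weight in the median, was set by the filter. All 5 proliferation markers were also higher in the lines than in liver, with a median of 3.42. Of these, Mki67, Ccna2 and Rrm2 likewise passed the filter through the lines alone. The part of the proliferation markers in the Ezh2 value was not tested.

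Of 7 tested trithorax genes 0 differed between the classes (median 0.025) and of 2 tested against liver 0 differed (median −0.55). Ash2l and Setd1a, subunits of complexes that methylate histone H3 at active promoters, differed between the classes by 0.18 ± 0.28 and 0.16 ± 0.17. In the retinoic acid list 0 of 9 tested genes differed in either comparison, with a median of −0.024 between the classes and −0.0095 against liver. Cyp26a1, which breaks down retinoic acid, was above background in liver at 23.1, C5F at 19.7 and C6 at 49.7 and near background in N1 and L2. The mean of N1 and L2 was dimmer than that of C5F and C6 by at least 2.59-fold, with a limma adjusted p-value of 0.670. Rxrb, a retinoid receptor, differed between the classes by 1.52 ± 0.55 (limma adjusted p = 0.713), without a usable spot in C5F. Cdx2, a homeobox gene of the gut that activates HOX genes, was tested as the only one of its list and differed by 0.029 ± 0.87 between the classes and by 0.21 ± 0.84 from liver.

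Genes beside the clusters were compared in the same way. Of 20 tested neighbours 0 differed between the classes (median 0.26). Mtx2, the nearest gene of the Hoxd side with a signal, had normalised signals of 96.1 (C6), 103 (N1), 104 (C5F) and 129 (L2), so it was above background in the lines where Hoxd8 was not. It differed by 0.20 ± 0.22 between the classes. Skap2, next to cluster A, was above background on all 5 arrays and differed by −0.16 ± 0.37. Skap1, next to cluster B, was near background on all 5 arrays. Smug1, next to cluster C, was above background in C6 (111) and L2 (26.3) alone. These neighbours were chosen for their place, after their values were seen. Against liver, 2 of 16 tested neighbours were higher and 0 lower (median 0.22), a share near the 9.01% of all tested probes that were higher. They were Cbx3 and Atf2. Cbx3, a heterochromatin protein, was higher by 2.31 ± 0.32 (limma adjusted p = 0.0313). Atf2, a transcription factor past the end of cluster D, was brighter on average by at least 1.45-fold (limma adjusted p = 0.0221). Its signal in L2, 13.8, lay below the lowest signal called above background in liver, 14.6. Atf2 was near background in liver, at 1.84, and passed the filter through the lines alone, so its direction was set by the filter.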

How the data were processed

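Total RNA was amplified to biotin-labelled cRNA and hybridised to 1 slide per sample. Scans were read by the authors in CodeLink Expression Analysis 4.1.0.29054, per the file headers. The deposited raw intensity has its background already subtracted, and the deposited normalized intensity is the raw intensity divided by the array median. The series matrix holds the latter unchanged. Irregular, contaminated and masked spots were left out. Raw intensities of the discovery probes were quantile normalised (limma 3.58.1, R 4.3.3), floored at 2.53 (the median signal of near-background spots) and log2 transformed. The 16377 probes called above background in 2 or more lines, or in liver, were kept. All 5 arrays entered 1 limma fit of 3 groups, tested two-sided and adjusted by Benjamini and Hochberg, with up to 2 residual degrees of freedom. Probes with none left were not tested. "At least N-fold" sets a bright group against the lowest signals called above background on the arrays of a dim one. The script was tested on simulated data. Names came from the platform annotation, updated through Entrez numbers (12177 of 12201 found in RefSeq, GRCr8). List genes with several probes were represented by the brightest on average. Promoters were searched with Python 3.11.15 and pandas 2.3.3. Named were all HOX members above background on any array and, of each list, the genes past the threshold (at most 4), or else the 2 with the largest class difference detected on both arrays of the class where they were brighter; other names are marked as chosen later. Members and lists were chosen with earlier results of these data known. Alternatives were other scalings, an offset, no filter, irregular spots kept, robust moderation, other detection rules and leaving out each line.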

Additional observations from a re-analysis of the deposited data

How the results depend on the processing

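The detection counts kept within 1.5 times of the values given, except above the 95th percentile of negative controls, where liver had 7, C6 had 8 and N1 had 10. The number of tested members whose classes did not overlap, 2, was 1 with scaling to the median of probes above background and 5 with no filter on dim probes. The HOX count against liver was 0 to 1 when each line was left out. Class differences smaller than their errors changed sign: Hoxb5 to −0.47 without L2 (leave-one-out range −0.47 to 0.63), Hoxb5os to 0.071 with the authors' normalized intensity and to 0.047 without C5F (range −0.11 to 0.047), and Hoxd1 to −0.14 with median scaling, −0.093 with scaling to the 75th percentile, −0.23 without C5F and −0.39 without L2 (range −0.39 to 0.42). Median scaling moved the median class difference of all probes to −0.12 and that against liver from 0.15 to 0.29. Against liver, 1077 probes in all were higher and 1121 lower. Higher were 621 with the offset, 623 with no filter, 1782 with irregular spots kept, 0 without C5F or C6, 114 without N1 and 132 without L2. Lower were 1725 with no filter, 0 without C5F or C6, 476 without N1 and 485 without L2. The causes were not tested. No paired analysis was possible because the 4 lines and the liver are separate samples, and the labels give no pairs among them. Replicate numbers are also absent from the sample labels. Every HOX signal was within 4.25 times the lowest signal called above background on its array.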
